A study of Caenorhabditis elegans with 12 samples.

Results

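Fed hermaphrodites were set against fed males of the nematode Caenorhabditis elegans, using 6 of the 12 expression arrays of the series. The arrays were chosen by their labels: 3 held RNA of fed hermaphrodites and 3 held RNA of fed males, with 1 array per sample. All worms were whole animals of the wild-type strain N2, raised at 20 C and collected on day 4 of adulthood. The sexes were parted as young adults by passing them through a nylon mesh. From that stage on both sexes were given 200 µg/ml of 5-fluoro-2'-deoxyuridine (FUdR), a drug that blocks DNA synthesis and keeps progeny from hatching, so every array describes FUdR-treated animals. Fed worms had food throughout, while the worms on the other 6 arrays, 3 of hermaphrodites and 3 of males, went without food for 48 h from day 2. Those fasted arrays served for a shared estimate of the spread and to ask where the sex difference in fed worms departed from that in fasted worms. The labels call the samples biological replicates of 3 independent experiments.

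In this species XX animals develop as hermaphrodites and XO animals as males. Adult hermaphrodites make oocytes after a short larval period of sperm production, their intestine secretes yolk, and a uterus and vulva hold and lay the eggs. Males make sperm throughout adult life and have a copulatory tail with its own neurons, muscles and secretory gonad. A secreted protein, HER-1, and a chain of TRA and FEM proteins ending in the transcription factor TRA-1 set sexual fate, and a dosage compensation complex lowers transcription from both X chromosomes of hermaphrodites.

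Levels are log2 of the deposited MAS5 array signal, and a difference is the mean of fed hermaphrodites minus the mean of fed males, so that a difference of 1 is a 2-fold change. Errors of differences are standard errors (SE) of the limma model, and a difference was called where its p, adjusted by Benjamini and Hochberg over all 15913 tested probe sets, was under 0.05. Probe sets entered the test if their value was above log2 6.01, the 40th percentile of all values, on at least 3 arrays. Values below that level are weak signal, and the size of a difference that reaches into it depends on how weak signal is treated. Because whole animals were measured, fewer cells of a type and less RNA per cell cannot be told apart in any value below. The 2% trimmed mean of the signal was 500.1 to 500.2 on every array, so values are relative to the other transcripts of an array. A lower value in 1 sex can thus also go with a larger share of other transcripts in its RNA, which was not tested. The number of arrays limits the precision.

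The labels of the 6 arrays were borne out by sex markers. The yolk gene vit-2 read 14.08, 14.25 and 13.93 on the 3 hermaphrodite arrays, against 7.76, 7.82 and 6.56 on the 3 male arrays. The gene pkd-2, whose channel protein acts in male-specific sensory neurons, read 4.60, 4.10 and 4.53 on hermaphrodite arrays and 9.98, 9.88 and 9.81 on male arrays. Neither marker overlapped between the sexes. Arrays of 1 sex resembled each other closely, with r across probe sets of 0.961 to 0.966 within fed hermaphrodites, 0.957 to 0.975 within fed males and 0.483 to 0.532 between the sexes. Of the variance among the 6 arrays, 90.9% lay on the first principal component that parted the sexes.

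Fed hermaphrodite replicate 1 stood apart in sperm transcripts. On that array 45 probe sets, standing for 30 genes, lay at least 2 log2 units above both other hermaphrodite arrays, and none lay as far below, among probe sets that passed log2 7.73 (the 60th percentile of all values) on at least 1 of the 3. The other hermaphrodite arrays had 3 and 2 such high probe sets and 3 and 0 such low ones, and the male arrays had 2, 0 and 0 high and 1, 0 and 8 low ones. With no minimum level, replicate 1 had 138 high and 70 low probe sets, against 47 and 49 high and 90 and 165 low ones on the other hermaphrodite arrays. Of the 30 genes 21 were msp genes, which encode the major sperm proteins, and msd-2, msd-4, msrp-2, nspd-1 and nspd-4 were among the rest. Every one of the 30 was lower in hermaphrodites and called, by -4.94 to -7.36. The summed signal of 23 msp genes was 51282, 4819 and 6413 on the hermaphrodite arrays, against 539659, 634623 and 710428 on the male arrays. A list of srlf genes and 3 genes of sperm activation in males did not follow, and summed to 26632, 24684 and 27765 on the hermaphrodite arrays, against 126532, 129394 and 129624 on the male arrays. The msp median of replicate 1 was also the highest among the fasted hermaphrodite arrays, at 8.85, against 7.01 and 6.64 in the other two. What lay behind this array's sperm signal was not tested, and sperm results are given with and without it.

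Sex altered most of the measured transcriptome. Of 15913 tested probe sets 11904 differed (74.8%), with 5713 higher (35.9%) and 6191 lower (38.9%) in hermaphrodites. On 12462 probe sets (78.3%) the 3 hermaphrodite and the 3 male arrays did not overlap. A 2-fold minimum left 8761 (55.1%), of which 4092 were higher (25.7%) and 4669 lower (29.3%). The median SE of a difference was 0.23 and the median over all tested probe sets was -0.13. With 1 probe set per gene, 9351 of 12212 genes differed (76.6%), 4331 higher (35.5%) and 5020 lower (41.1%), and these last shares are the background against which the gene groups below are read.

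The distribution was lopsided at its far ends. At 4-fold or more 1759 probe sets were higher and 2347 lower, at 32-fold 240 and 672, and at 256-fold 25 and 156. None was 1024-fold higher in hermaphrodites and 47 were 1024-fold lower. A one-sided pattern, with a group mean above log2 7.73 in 1 sex and all 3 arrays of the other sex under log2 6.01, was shown by 179 genes for hermaphrodites and 740 for males, a definition made after the values were seen. These extremes depend on the weak signal in the other sex, and adding 64.6 signal units to every value before taking logs shortened them, as given below for single genes.

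**Figure D1:**
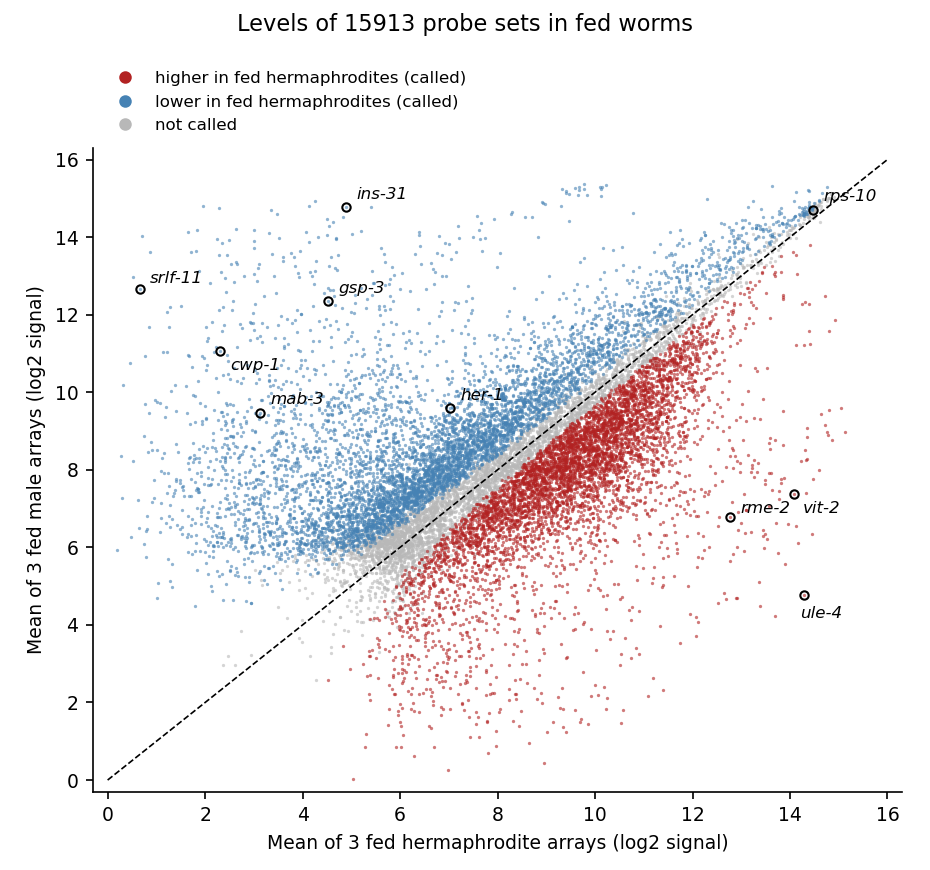
Mean log2 signal of each of 15913 tested probe sets on the 3 fed hermaphrodite arrays (x axis) and the 3 fed male arrays (y axis), with called probe sets in red (higher in hermaphrodites) or blue (lower) and the dashed line marking equal levels. The 10 circled genes include ule-4, vit-2 and rme-2 far below the line, srlf-11, ins-31, gsp-3 and cwp-1 far above it, and rps-10 on it.

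Among uniquely matched genes with a locus name, ule-4 showed the largest excess in hermaphrodites. It is named for the uterine lumen, where its product is found. It read 14.18, 14.30 and 14.38 on hermaphrodite arrays and 5.96, 6.22 and 2.12 on male arrays, a difference of 9.52 ± 0.80 that became 7.55 after the added signal. Others of the 15 largest were the C-type lectin gene clec-222 (8.402 ± 0.82), the yolk gene vit-1 (8.36 ± 0.58), the chitinase gene cht-3 (7.95 ± 0.65), the caveolin gene cav-1 (7.83 ± 0.30), the neuropeptide-like gene nlp-39 (7.78 ± 0.43) and the zinc finger gene ztf-25 (7.75 ± 0.38). The embryonic gene sdz-28 (7.69), the Skp1-related gene skr-7 (7.44), ule-5 (7.13), the meiotic spindle gene mesp-1 (6.81), the chondroitin proteoglycan gene cpg-4 (6.80), vet-2 (6.70) and the maternal gene memi-3 (6.56) came after these. The ranking, in both directions, was confined to called genes on which the sexes did not overlap. Over all tested probe sets 78.3% did not overlap.

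The largest deficits in hermaphrodites were larger. The gene srlf-11 read 0.76, 1.21 and 0.00 on hermaphrodite arrays, which is at the bottom of the scale, and 12.74, 12.76 and 12.48 on male arrays. Its difference of -11.999 ± 0.35 became -6.62 after the added signal. Members of the C-type lectin family filled many of the next places, with clec-96 at -11.70 ± 0.61, clec-137 at -11.58 ± 0.84, clec-217 at -11.26 ± 0.73, clec-94 at -11.11 ± 0.34, clec-141 at -10.85, clec-136 at -10.53 and clec-95 at -10.27. The secreted SCP/TAPS protein genes scl-15 (-10.67), scl-7 (-10.65) and scl-9 (-10.05), srlf-2 (-10.06), pqn-84 (-10.77), hpo-33 (-10.16) and the insulin-like gene ins-31 (-9.87) completed the 15. C-type lectins, SCP/TAPS proteins and insulin-like peptides are secreted proteins.

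Yolk and the yolk receptor were high in hermaphrodites. All 5 of the 5 vitellogenin genes on the array with a probe set of their own were higher, with a median difference of 6.13. Vitellogenins are the yolk lipoproteins that the adult intestine secretes and oocytes take up. The gene vit-1 read 12.34, 12.10 and 11.81 on hermaphrodite arrays and 3.38, 5.48 and 2.30 on male arrays, and vit-5 read 15.06, 15.18 and 15.12 on hermaphrodite arrays and 8.71, 9.55 and 8.70 on male arrays. The difference was 6.71 ± 0.28 for vit-2, 6.08 ± 0.16 for vit-4, 6.13 ± 0.27 for vit-5 and 5.47 ± 0.37 for vit-6. 4 of the 5 genes are X-linked, and 3 of the probe sets are of a type that near-identical copies share. The receptor gene rme-2, through which oocytes take up yolk, read 12.77, 12.69 and 12.82 on hermaphrodite arrays and 6.69, 6.91 and 6.77 on male arrays (5.98 ± 0.21, adjusted p = 1.76e-10). It lies in the germ line, whereas the vitellogenin genes are expressed in the intestine.

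Oocyte and maternal regulators were higher as a group. Of 36 tested genes (of 37 listed) 33 were higher and none was lower, with a median of 3.64. The RNA-binding protein genes puf-5 and puf-3, which act in late oogenesis, differed by 6.997 ± 0.27 and 6.13 ± 0.13. For puf-5 the hermaphrodite arrays read 13.34, 13.43 and 13.56 and the male arrays 5.95, 6.69 and 6.70. The oocyte maturation gene oma-2 differed by 6.49 ± 0.21, the maternal zinc finger gene pos-1 by 6.05 ± 0.12 and the germ cell gene nos-2 by 5.83 ± 0.16. The other 3, which also act outside the germ line, did not pass: par-1 (0.02 ± 0.25, 95% interval -0.52 to 0.55), skn-1 (0.17 ± 0.24, -0.34 to 0.69) and atx-2 (0.37 ± 0.21, -0.08 to 0.83).

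Genes of the eggshell and the egg surface were all higher, 15 of 15 tested (17 listed), with a median of 4.79. The egg surface receptor gene egg-1, needed for fertilization, read 13.01, 13.06 and 12.93 on hermaphrodite arrays and 6.60, 6.45 and 6.84 on male arrays (6.37 ± 0.13). The chitin synthase gene chs-1, which makes the chitin layer of the shell, differed by 6.10 ± 0.28. The chondroitin proteoglycan genes cpg-1, cpg-2 and cpg-3 differed by 5.52 ± 0.10, 5.21 ± 0.11 and 6.16 ± 0.14, and cbd-1, which anchors the shell's outer layer, by 5.06 ± 0.17. The smallest difference of the list was that of perm-3 (1.18 ± 0.12). A list of genes first transcribed in embryos was also higher in these FUdR-treated hermaphrodites, with 9 of 13 tested genes higher and 1 lower (11 and 1 of 23 without the filter). They included sdz-28 (8.87, 8.27 and 8.81 on hermaphrodite arrays, 0.08, 2.03 and 0.78 on male arrays), vet-1 (6.10 ± 0.68) and the HAND transcription factor gene hnd-1 (4.98 ± 0.84), while the hormone receptor gene nhr-57 went the other way (-1.53 ± 0.20). The part of embryos inside the hermaphrodites in the oocyte and eggshell values was not tested.

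Products of the uterus and of the somatic gonad were mixed. Besides ule-4, the genes ule-1 (7.56 ± 0.28) and ule-5 (7.13 ± 0.28) were higher, and ule-3 was not called on its brightest probe set (-0.14 ± 0.15) but read 6.53 on another. Of 20 genes of the gonadal sheath and spermatheca, which enclose oocytes and store sperm, 6 were higher and 8 lower. These shares of 30% and 40% were near the 35.5% and 41.1% over all genes. The gap junction genes inx-22 (3.94 ± 0.15), inx-14 (2.99 ± 0.16) and inx-21 (1.85 ± 0.13), which act in germ cells, and inx-8 (2.94 ± 0.12), which acts in the sheath, were higher. The sheath partner inx-9 was lower (-1.304 ± 0.26), as were lfe-2 (-1.70 ± 0.18), which tunes inositol phosphate signalling in the spermatheca, and the junction gene vab-9 (-1.64 ± 0.16). Among 18 genes of the egg-laying system 3 were higher and 9 lower. The growth factor gene lin-3, the EGF-like inducer of the vulva, was higher (2.04 ± 0.17). The neuropeptide genes flp-17 (-3.55 ± 0.17) and nlp-3 (-2.44 ± 0.18) and the vesicular monoamine transporter gene cat-1 (-2.67 ± 0.33) were lower.

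**Figure D2:**
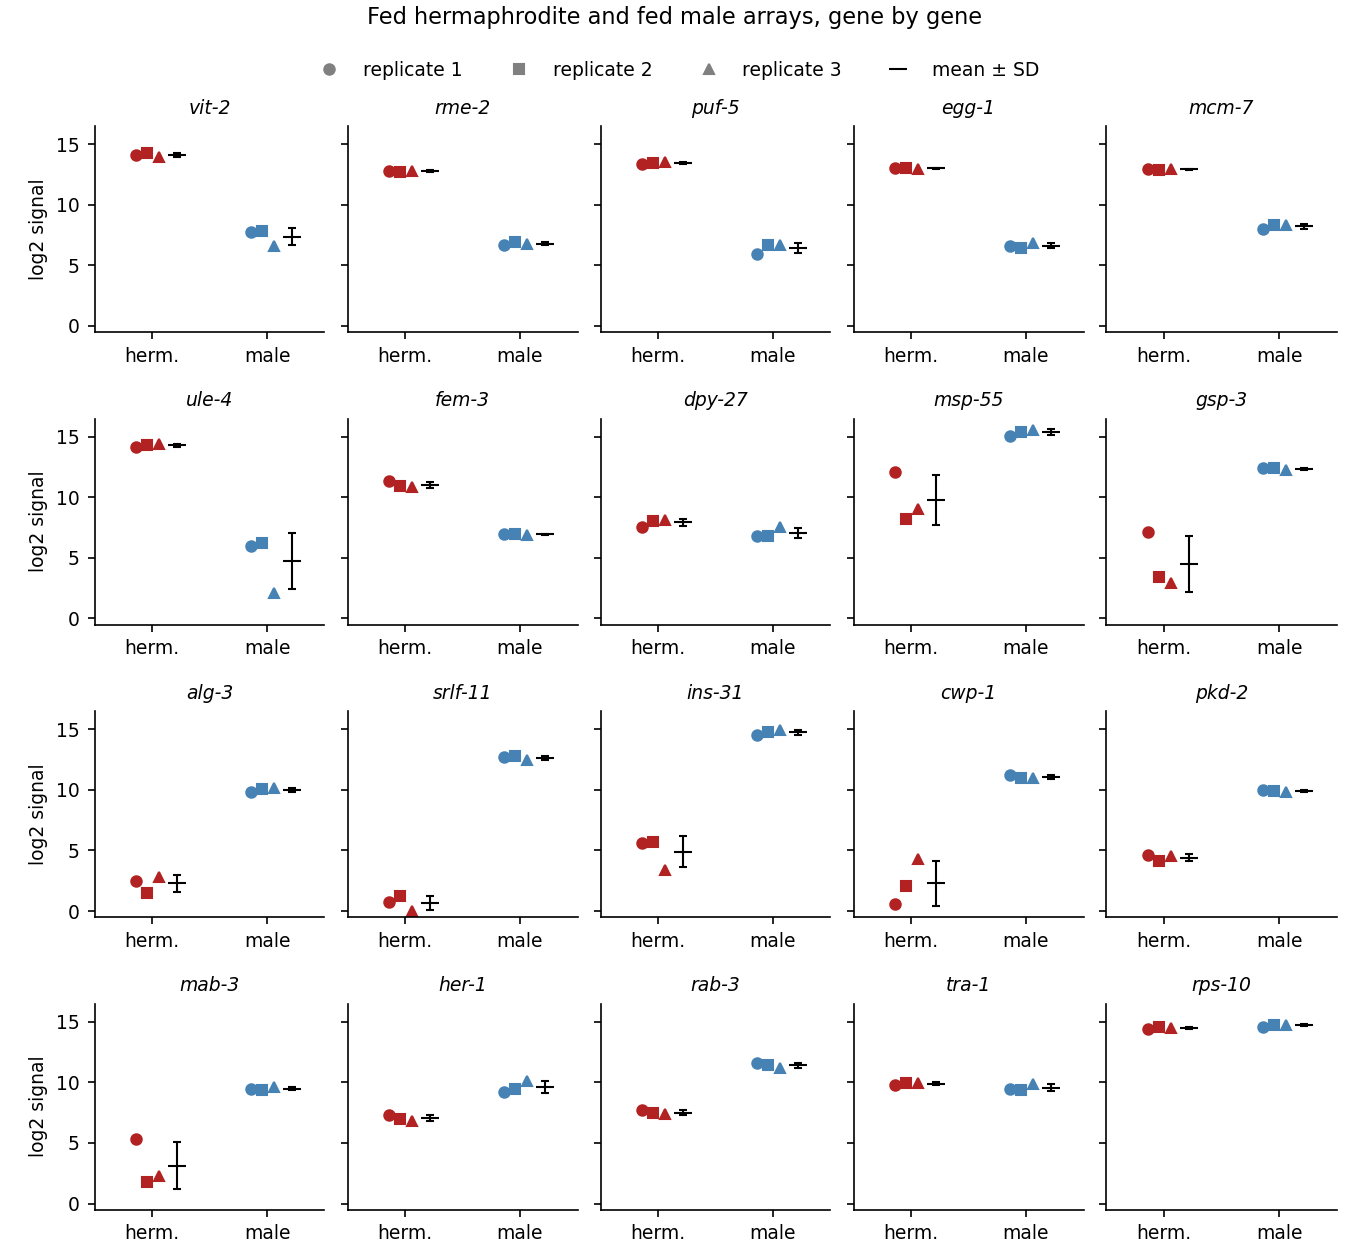
Log2 signal (y axis) of 20 genes on each fed hermaphrodite array (red, left) and each fed male array (blue, right), with replicates as symbols and the mean ± SD beside them (n = 3 per sex). Genes of the first 7 panels sit higher in hermaphrodites without overlap, and msp-55 to rab-3 sit lower. The tra-1 difference was not called, and rps-10 lies at similar levels in both sexes. Replicate 1 is the high hermaphrodite array for msp-55, gsp-3 and mab-3.

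DNA replication genes were uniformly higher in hermaphrodites. All 34 tested genes of 36 listed were called, with differences from 2.02 to 4.87 and a median of 3.23. The replicative helicase gene mcm-7 read 12.93, 12.87 and 12.96 on hermaphrodite arrays and 7.997, 8.33 and 8.37 on male arrays, with a difference of 4.69 ± 0.14. The ribonucleotide reductase genes rnr-1 (4.81 ± 0.16) and rnr-2 (4.87 ± 0.14), which supply deoxynucleotides, the clamp gene pcn-1 (4.07 ± 0.16) and the helicase subunit gene psf-2 (3.91 ± 0.18) were among the largest. These worms were under a blocker of DNA synthesis in both sexes, and its part in the sex difference was not tested.

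Mitotic cell cycle genes followed, with 53 of 55 higher and 1 lower (median 2.11). The CDC25 phosphatase gene cdc-25.3 read 10.57, 10.80 and 10.32 on hermaphrodite arrays and 1.296, 2.23 and 1.89 on male arrays (8.76 ± 0.53). The cyclin genes cye-1 (5.78 ± 0.57), cyb-3 (5.22 ± 0.15), cyb-2.1 (5.17 ± 0.12) and cyb-2.2 (5.18 ± 0.13) and the spindle kinesin gene klp-18 (5.51 ± 0.40) were higher as well. The lone lower member was another phosphatase gene of the same family, cdc-25.4 (-3.31 ± 0.52), so that CDC25 genes lay on both sides. The cdc-25.4 arrays read 3.46, 6.08 and 5.89 in hermaphrodites and 8.33, 8.48 and 8.54 in males.

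Meiotic chromosome genes were higher by less. Of 35 tested genes 33 were higher and none lower, with a median of 1.78. Both sexes carry out meiosis in adult life. The checkpoint gene pch-2 had the largest difference (3.79 ± 0.18), before the recombination gene com-1 (2.68 ± 0.38), the nuclear envelope gene sun-1 (2.499 ± 0.16) and the repair gene brc-1 (2.42 ± 0.28). The synaptonemal complex gene syp-1 differed by 0.27 ± 0.14 and was not called (95% interval -0.04 to 0.57).

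Germ granule and small RNA genes lay on both sides. Of 34 tested 29 were higher and 3 lower. The 4 X-linked genes meg-1 (6.14 ± 0.24), meg-2 (5.30 ± 0.39), meg-3 (5.27 ± 0.69) and meg-4 (4.83 ± 0.54), whose products act in embryonic P granules, headed the list. The Argonaute gene ergo-1, of the oocyte and embryo small RNA pathway, was higher (3.74 ± 0.14), as was the nuclear Argonaute gene hrde-1 (3.64 ± 0.36). In contrast the Argonaute genes of the sperm small RNA pathway, alg-3 and alg-4, were lower. The alg-3 arrays read 2.51, 1.51 and 2.79 in hermaphrodites and 9.82, 10.07 and 10.12 in males (-7.73 ± 0.39), and alg-4 differed by -5.34 ± 0.38. The third lower member was sago-1 (-0.50 ± 0.16), which was not called without hermaphrodite replicate 3 (-0.35) or male replicate 1 (-0.38). Histone genes also lay on both sides, 22 higher and 5 lower of 35, with a median of 1.05 that turned to -0.30 when probe sets shared by similar sequences were left out. The H3 variant gene his-70 (-6.35 ± 0.37) and the sperm H2A variant gene htas-1 (-5.17 ± 0.30) were lower, and the H2A.Z gene htz-1 (2.90 ± 0.17) and the linker histone gene hil-4 (3.33 ± 0.16) were higher.

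Genes of sperm proteins were lower in hermaphrodites. All 23 tested msp genes were lower in hermaphrodites, by -4.94 to -7.09, with a median of -5.95 that became -7.10 without fed hermaphrodite replicate 1. Major sperm proteins build the cytoskeleton of the crawling sperm and signal to oocytes. Their sequences are nearly identical and all 23 probe sets are of the shared type, so single msp genes cannot be told apart. For msp-55 the hermaphrodite arrays read 12.07, 8.24 and 8.999 and the male arrays 15.09, 15.39 and 15.59. The msp-49 arrays read 9.63, 4.63 and 7.32 in hermaphrodites and 14.18, 14.35 and 14.34 in males (-7.09 ± 1.04), with the larger spread among hermaphrodites. All 23 remained called without replicate 1.

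The spe and fer genes, found through mutants with failing sperm, were lower in 25 of 29 cases and higher in 2, with a median of -3.07. Without fed hermaphrodite replicate 1 the counts were 24 and 1 and the median -2.92. Of all 30 on the array, with no filter, 26 were lower and 2 higher (median -2.81). The tyrosine kinase gene spe-8, of the sperm activation pathway, differed by -6.64 ± 0.44, followed by spe-55 (-6.44 ± 0.65), spe-46 (-5.86 ± 0.23), spe-18 (-5.17 ± 0.22) and the presenilin gene spe-4 (-5.16 ± 0.42). The gene spe-9, whose product sits on the sperm surface for fertilization, read 5.45, 3.88 and 4.89 on hermaphrodite arrays and 6.01, 6.68 and 6.32 on male arrays (-1.60 ± 0.41, adjusted p = 0.00329). Both groups of spe-9 values lie in or near weak signal. The exceptions were spe-39 (1.54 ± 0.17), which also acts in lysosome trafficking of other cells, and spe-48 (0.45 ± 0.15), which was not called without hermaphrodite replicate 1 (0.38) or male replicate 2 (0.35).

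Further sperm families were lower in 17 of 18 tested genes (median -5.63, and -6.04 without fed hermaphrodite replicate 1). Of all 20 on the array 17 were lower and 0 higher (median -5.17). They included ssq-3 (-8.61 ± 0.74), ssp-35 (-7.68 ± 0.67), the MSP-like PDZ gene smz-2 (-7.10 ± 0.73) and the nematode-specific peptide genes nspd-4 (-6.75 ± 0.75) and nspd-1 (-6.68 ± 0.54). Regulators of sperm fate did not share the direction. Of 15 tested 7 were higher (46.7%) and 6 lower (40%), against 35.5% and 41.1% over all genes, with a median of 0.01. By at least 2-fold 7 were higher and 5 lower, and the lowest member stood at -7.84. Without fed hermaphrodite replicate 1 the counts were the same and the median 0.08. The genes fog-1 (2.03 ± 0.18) and fog-2 (2.51 ± 0.17), which promote sperm fate, and the translational repressor gene puf-8 (2.52 ± 0.16) were higher in hermaphrodites. The gene fog-3, a Tob-family regulator of sperm fate, was lower, with 7.76, 7.73 and 8.397 on hermaphrodite arrays and 9.31, 9.38 and 9.46 on male arrays (-1.42 ± 0.20). Of the sperm transcription factor genes nhr-23 was higher (1.06 ± 0.16) on its brightest probe set and at -0.66 on another, and spe-44 differed by -0.40 ± 0.14 (adjusted p = 0.0243, and up to 0.116 with 1 array left out).

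Sets of paralogues with a sperm member were listed together and had no single direction. Of 37 tested genes (42 listed) 10 were higher, 16 were lower and 11 were not called. Among the members named here, some sets split between the sexes and others did not. The sperm phosphatase gene gsp-3 read 7.16, 3.45 and 2.94 on hermaphrodite arrays and 12.39, 12.42 and 12.25 on male arrays (-7.84 ± 0.79), and its near copy gsp-4 differed by -6.42 ± 0.57. The general copies of this type 1 phosphatase differed by -0.04 ± 0.19 (gsp-1, not called) and 1.47 ± 0.31 (gsp-2). The translational regulator gene cpb-2 was lower (-6.27 ± 0.71) while cpb-1 (1.01 ± 0.22) and cpb-3 (2.08 ± 0.16), which act in germ cell development, were higher. Which of these cpb genes serves sperm is not given in the sources used here. The cytochrome c gene cyc-2.2 differed by -6.79 ± 1.08 and its paralogue cyc-2.1 by -0.25 ± 0.13. For the proteasome lid subunit RPN-6, rpn-6.2 was lower (-1.53 ± 0.23) and rpn-6.1 higher (1.55 ± 0.13). For phosphofructokinase, pfk-1.2 differed by -4.38 ± 0.50 and pfk-1.1 by -0.80 ± 0.25 (adjusted p = 0.0113, and up to 0.0561 with 1 array left out). The mitochondrial ATP/ADP carrier genes ant-1.4 (-5.10 ± 0.21) and ant-1.3 (-4.77 ± 0.26) were lower too. The germ line cap-binding gene ife-3 was higher (2.2002 ± 0.23) and ife-1, needed for sperm, differed by -0.15 ± 0.16 and was not called.

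Genes of male sensory neurons were lower in hermaphrodites. Of 15 tested (21 listed) 11 were lower and 2 higher, and of all 21 on the array 12 and 2. The genes cwp-1 and cwp-2, coexpressed with the polycystins in ray and head neurons, were extreme. The cwp-1 arrays read 0.59, 2.05 and 4.28 in hermaphrodites and 11.23, 10.99 and 10.98 in males, with a difference of -8.76 ± 0.65 (-4.93 after the added signal), and cwp-2 differed by -8.33 ± 0.76. The polycystin genes pkd-2 and lov-1, which males need to find the vulva, differed by -5.48 ± 0.27 and -4.29 ± 0.96. The lov-1 arrays read 0.41, 5.21 and 4.74 in hermaphrodites and 7.89, 7.68 and 7.66 in males. The TRAF gene trf-1 was lower too (-4.11 ± 0.20), whereas stam-1 (1.28 ± 0.12) and the tubulin deglutamylase gene ccpp-1 (1.45 ± 0.29), which are also used elsewhere, were higher.

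The srlf genes and the genes of male sperm activation were lower in hermaphrodites, and srlf-18 had the largest difference of all tested probe sets. The role of the srlf genes is not given in the sources used here. Of 18 tested (27 listed) 16 were lower and none higher, and the counts without the filter were 16 and 0 of 27. The gene srlf-18 read 0.99, 1.01 and 0.11 on hermaphrodite arrays and 14.04, 14.03 and 13.996 on male arrays (-13.32 ± 0.23), on a probe set of the shared type. Its relatives srlf-17 (-11.90 ± 0.17), srlf-2 (-10.06 ± 0.58) and srlf-26 (-8.09 ± 0.45) were lower as well. The serine protease gene try-5, which activates sperm in seminal fluid, differed by -5.002 ± 0.24, its inhibitor gene swm-1 by -2.11 ± 0.17, and the sperm transporter gene snf-10, through which sperm sense the protease, by -5.76 ± 0.63.

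The secreted families of the largest differences were examined whole. Among C-type lectin genes 108 of 137 tested were lower and 10 higher (median -2.42), and 118 and 11 of all 220 on the array (median -1.45). Their median level was 5.26 on hermaphrodite arrays and 9.08 on male arrays, so many passed the filter through males. C-type lectins bind sugars and have been studied mostly for their part in immunity. The 10 on the hermaphrodite side included clec-222, clec-266 (8.22 ± 0.28), clec-87 (6.58 ± 0.13), clec-91 (6.12 ± 0.15) and clec-88 (5.66 ± 0.13). Genes named scl were lower in 15 of 16 tested (median -5.17) and in 18 of all 25 on the array, of which 1 was higher (median -2.75). Trypsin-like protease genes named try were lower in 7 of 9, with try-13 at -9.77 ± 0.36, try-8 at -9.36 ± 0.39 and try-11 at -9.06 ± 0.19, and higher in 2, try-14 (7.31 ± 0.15) and try-1 (5.49 ± 0.32). The astacin protease genes nas-19 (-9.78 ± 0.95), nas-24 (-9.55 ± 0.54) and nas-17 (-9.30 ± 0.40) were lower, and nas-37, which digests the cuticle at moults, was higher (3.87 ± 0.86). Of 16 neprilysin genes 14 were lower and 1 higher, and 17 and 1 of all 25 on the array. The scl, try, nas and nep families were grouped after the values were seen. Among lysozyme and antimicrobial peptide genes 26 of 45 were lower, including fipr-16 (-10.78 ± 0.39), fip-3 (-10.12 ± 0.59), fipr-17 (-9.70 ± 0.63) and abf-1 (-6.88 ± 0.43), and 3 higher, lys-4 (5.47 ± 0.23), lys-6 (2.25 ± 0.38) and ilys-5 (1.98 ± 0.25). Of all 60 on the array 26 were lower and 4 higher.

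**Figure D3:**
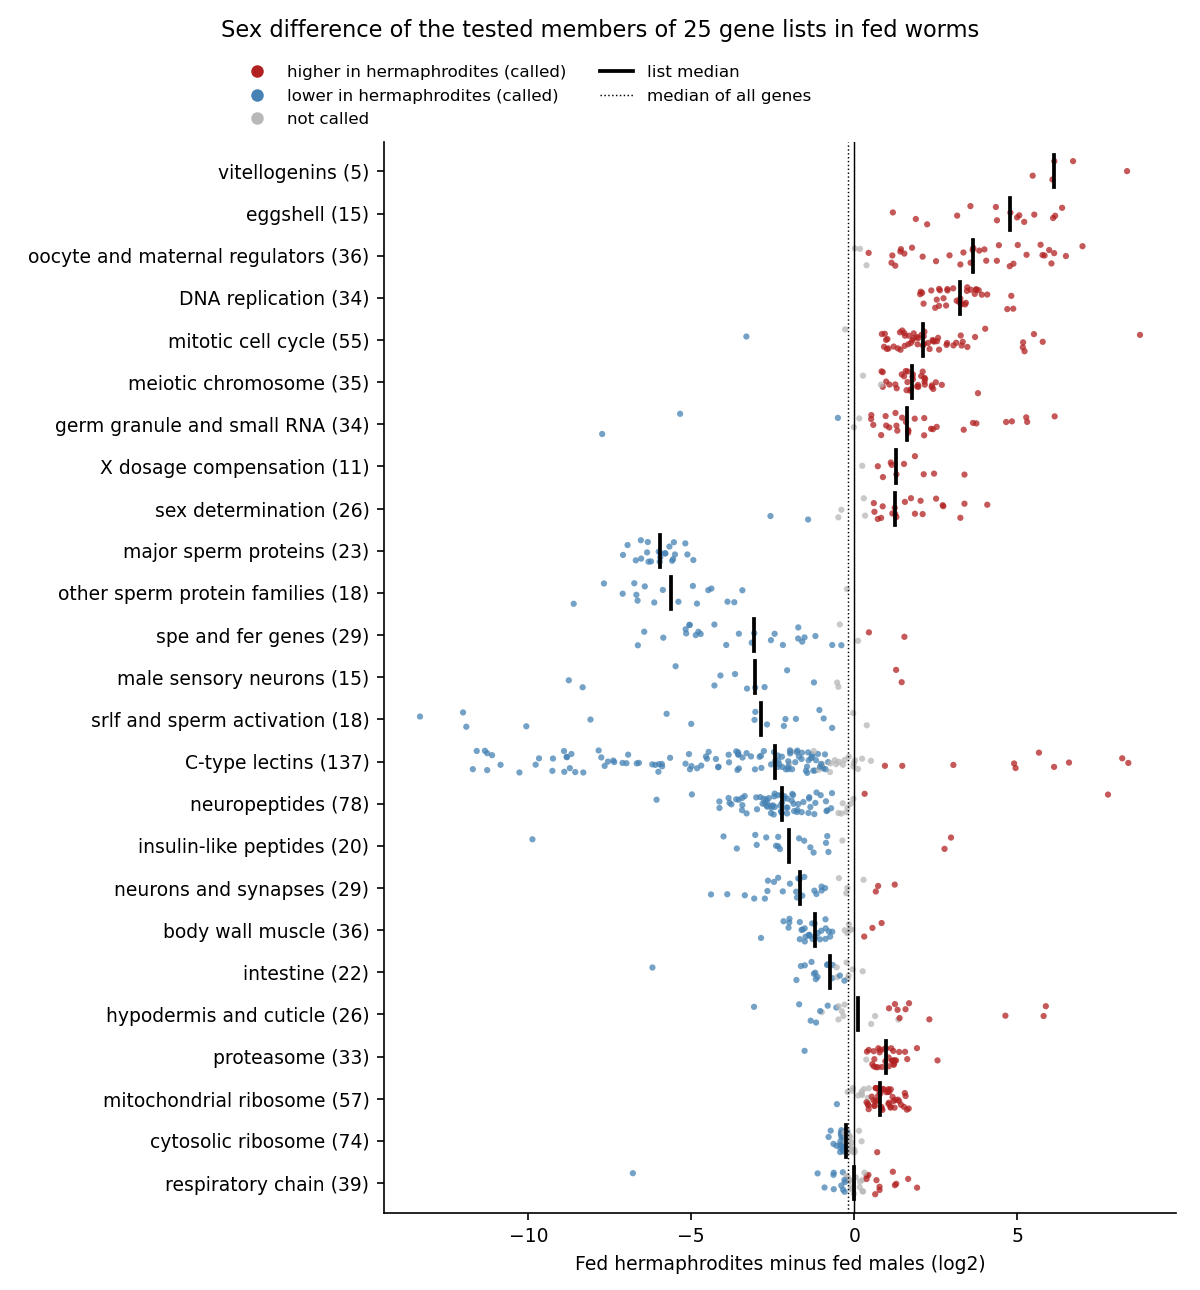
Fed hermaphrodites minus fed males (x axis, log2) for every tested member of 25 gene lists (rows, with the number tested), each point a gene, coloured by its call, with the list median as a bar and the median of all genes, -0.20, as a dotted line. Oocyte, eggshell and replication lists lie right of 0, sperm, srlf, lectin and neuropeptide lists left of it, and the cytosolic ribosome and respiratory chain lists around it.

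In the sex determination pathway the secreted signal differed, and the terminal transcription factor gene did not pass the test. The gene her-1, whose secreted product directs male development, read 7.29, 6.98 and 6.81 on hermaphrodite arrays and 9.21, 9.43 and 10.15 on male arrays, without overlap (-2.57 ± 0.34, adjusted p = 1.91e-05). The terminal gene tra-1 read 9.78, 9.91 and 9.98 on hermaphrodite arrays and 9.45, 9.34 and 9.90 on male arrays, a difference of 0.33 ± 0.25 that was not called (95% interval -0.22 to 0.88). Its other probe sets read -0.67 and -0.40. The gene fem-3, which promotes male fate and is deposited in oocytes, was higher in hermaphrodites, at 11.32, 10.90 and 10.88 against 6.998, 6.95 and 6.92 on male arrays (4.08 ± 0.17). The male switch gene xol-1, which acts in early embryos, had too little signal to be tested. The translational repressor gene gld-1, which acts in the germ line, was higher (3.25 ± 0.14). Among X-linked signal elements that report the number of X chromosomes to the embryo, sex-1 (3.38 ± 0.21), ceh-39 (2.73 ± 0.19) and fox-1 (2.71 ± 0.45) were higher. Over the list 20 of 26 tested genes were higher and 2 lower, and tra-3 (-0.40 ± 0.19), fem-1 (0.29 ± 0.17, with 0.46 on another probe set that was called) and laf-1 (-0.49 ± 0.28) were not called.

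Dosage compensation genes were higher in 10 of 11 cases and lower in none (median 1.29). The condensin subunit genes dpy-28 (2.44 ± 0.27), capg-1 (2.13 ± 0.19), dpy-26 (1.52 ± 0.15) and the recruitment genes sdc-1 (1.86 ± 0.17) and sdc-2 (1.29 ± 0.36) were among them. The dedicated condensin gene dpy-27, which serves the X chromosome alone, read 7.58, 8.07 and 8.14 on hermaphrodite arrays and 6.79, 6.81 and 7.56 on male arrays. Its sexes did not overlap by a narrow margin and its difference was 0.88 ± 0.27 (adjusted p = 0.0106). The histone demethylase gene dpy-21 was not called (0.24 ± 0.22).

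Regulators of male tail development were few above the filter, 14 of 22 listed, with 6 lower and 4 higher. These shares of 42.9% and 28.6% were near the 41.1% and 35.5% over all genes. The DM domain gene mab-3, a target of TRA-1 that keeps male intestines from making yolk, read 5.33, 1.796 and 2.23 on hermaphrodite arrays and 9.42, 9.38 and 9.64 on male arrays (-6.36 ± 0.73). The DM domain genes dmd-3 (-1.103 ± 0.25), which shapes the male tail tip, and dmd-7 (-1.52 ± 0.23) and the Hox gene mab-5 (-1.45 ± 0.25) were lower. The gene dmd-9 (2.81 ± 0.17), the GATA factor gene egl-18 (2.54 ± 0.48), sop-2 (1.90 ± 0.25) and the hormone receptor gene nhr-25 (1.32 ± 0.30) were higher.

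Markers of somatic tissues present in both sexes were mostly lower in hermaphrodites. Neuron and synapse genes were lower in 22 of 29 tested and higher in 3 (median -1.67). The synaptic vesicle gene rab-3 read 7.69, 7.49 and 7.35 on hermaphrodite arrays and 11.60, 11.46 and 11.16 on male arrays (-3.90 ± 0.16). The choline acetyltransferase gene cha-1 (-4.39 ± 0.84), the calcium sensor gene snt-1 (-3.36 ± 0.28), the complexin gene cpx-1 (-3.07 ± 0.27) and the neuropeptide processing gene egl-3 (-2.74 ± 0.13) were lower, and unc-57 (1.24 ± 0.16), goa-1 (0.73 ± 0.10) and unc-11 (0.66 ± 0.26) were higher. For unc-11 the call was lost without hermaphrodite replicate 1 (0.66) or 2 (0.57) or male replicate 2 (0.71) or 3 (0.46), and another of its probe sets read -0.74. Body wall muscle genes were lower in 28 of 36 and higher in 3 (median -1.21). The troponin I gene tni-3 differed by -2.86 ± 0.19, the giant muscle protein genes ttn-1, unc-22 and unc-89 by -2.17 ± 0.21, -2.02 ± 0.19 and -1.99 ± 0.18, and the myosin heavy chain gene unc-54 by -1.67 ± 0.18. The higher members were the integrin gene pat-3 (0.84 ± 0.18), the myosin chaperone gene unc-45 (0.55 ± 0.16) and the cofilin gene unc-60 (0.30 ± 0.11). The unc-60 call was lost without hermaphrodite replicate 1 (0.30) or 2 (0.27) or male replicate 1 (0.30) or 2 (0.30), and its other probe sets ranged from -1.73 to 1.14.

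Pharynx genes were lower in 10 of 17 tested and higher in 2, led by the pharyngeal myosin genes myo-2 (-3.20 ± 0.53) and myo-1 (-2.54 ± 0.24). Intestine genes other than the vitellogenins were lower in 15 of 22 and higher in none (median -0.75), so the yolk genes and the markers of the tissue that makes yolk lay on opposite sides. The peptide transporter gene pept-1 (-1.78 ± 0.30), the protease gene cpr-1 (-1.64 ± 0.24) and the gut GATA factor genes elt-7 (-1.52 ± 0.15) and elt-2 (-1.24 ± 0.19) were lower. The intermediate filament gene ifc-1 differed by -6.19 ± 1.07. Hypodermis and cuticle genes were mixed, 10 higher (38.5%) and 7 lower (26.9%) of 26, against 35.5% and 41.1% over all genes. Their median of 0.11 had the other sign under 5 alternative settings. The genes hch-1 (5.87 ± 0.74), a hatching protease that is also on the embryonic list, wrt-10 (5.805 ± 0.31), the cuticle collagen gene dpy-14 (4.63 ± 0.51) and lin-26 (2.30 ± 0.10) were higher, and dpy-8 (-3.08 ± 0.71), sqt-3 (-1.69 ± 0.30, with 1.70 on another probe set) and elt-3 (-1.34 ± 0.14) were lower. Collagen genes named col were lower in 29 of 72 tested (40.3%), near the 41.1% over all genes, and higher in 3 (4.17%, against 35.5%). Without the filter the counts were 29 lower and 3 higher of 128.

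Genes of peptide signals were lower in hermaphrodites with few exceptions. Of 78 tested neuropeptide genes (86 listed) 69 were lower and 2 higher, with a median of -2.22. All 24 tested flp genes, which encode FMRFamide-like peptides, were lower. The largest deficits were those of nlp-45 (-6.06 ± 0.87), nlp-53 (-4.98 ± 0.52), nlp-2 (-4.14 ± 0.57), flp-23 (-4.14 ± 0.65) and flp-21 (-3.86 ± 0.30), the last a ligand of the receptor NPR-1. Against this stood nlp-39, at 9.97, 10.50 and 10.06 on hermaphrodite arrays and 2.67, 1.29 and 3.23 on male arrays, and nlp-36 (0.32 ± 0.13), whose call was lost with any fed array left out (0.24 to 0.36).

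Insulin-like peptide genes, whose products act on the receptor DAF-2, were lower in 17 of 20 tested and higher in 2. The gene ins-31 read 5.58, 5.67 and 3.42 on hermaphrodite arrays and 14.55, 14.79 and 14.95 on male arrays (-9.87 ± 0.50). The genes ins-37 (-4.01 ± 0.32), ins-18 (-3.60 ± 0.16), which encodes an antagonist of the receptor, ins-4 (-3.04 ± 0.64) and ins-33 (-2.99 ± 0.39) were lower too. The pair that was higher was ins-35 (2.96 ± 0.37) and ins-34 (2.77 ± 0.49). For ins-35 the hermaphrodite arrays read 6.56, 6.24 and 6.75 and the male arrays 2.88, 3.92 and 3.86.

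Machinery of protein turnover and gene expression leaned to the hermaphrodite side. Proteasome genes were higher in 31 of 33 cases (median 0.98), including pas-7 (2.55 ± 0.13), rpn-11 (1.92 ± 0.16) and rpn-5 (1.62 ± 0.09), and the exception was rpn-6.2. Mitochondrial ribosome genes were higher in 45 of 57 and lower in 1 (median 0.79), with mrpl-51 (1.67 ± 0.13) and mrps-16 (1.61 ± 0.19) at the top and mrps-12 (-0.54 ± 0.16) below 0. Groups assembled after the values were seen showed the same side: 24 of 25 nuclear pore genes, 15 of 16 Mediator genes and 19 of 20 splicing factor genes were higher and none was lower. Genes named fbxa, fbxb, fbxc, skr, bath or math were listed together as ubiquitin ligase parts and related genes. They were higher in 120 and lower in 63 of 239 tested, and in 138 and 71 of 414 without the filter. SCF ligases join an F-box protein, which picks the substrate, to a Skp1-related adaptor, while bath genes belong to another ligase class. Whether math genes serve a ligase is not given in the sources used here. The bath and math genes leaned to opposite sides, as given under other observations. Split by name after the values were seen, fbxb genes were higher in 43 and lower in 2 of 50 (median 2.89), and in 51 and 2 of all 95 on the array (median 1.76). Their median level was 6.22 on hermaphrodite arrays and 3.21 on male arrays, so they passed the filter mainly through hermaphrodites. The fbxa genes were higher in 30 and lower in 42 of 100, and in 34 and 47 of all 171, and the families were not tested against each other. The fbxa shares of 30% and 42% were near the 35.5% and 41.1% over all genes. Among all these genes the adaptor genes skr-14 (7.57 ± 0.75) and skr-7 (7.44 ± 0.50) and the F-box genes fbxb-13 (6.33 ± 0.81) and fbxb-8 (6.26 ± 0.64) were the highest, and fbxb-21 (-6.84 ± 0.35) and the MATH domain gene math-32 (-6.12 ± 0.56) the lowest.

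Cytosolic ribosomal protein genes differed little in size. Of 74 tested 30 were lower (40.5%, near the 41.1% over all genes), 1 was higher (1.35%, against 35.5%) and 43 were not called. With no filter on weak signal 17 were lower. The median was -0.27 and turned to 0.11 after quantile normalization. That normalization moved the median of all probe sets from -0.13 to 0.07, so small shifts such as these depend on the scale. The range ran from -0.79 for the X-linked rpl-11.2 to 0.70 for rpl-41.1. For 599 probe sets (3.76% of those tested) the 95% interval of the difference lay inside -0.5 to 0.5, and 14 of these were called all the same. Without male replicate 2 the count was 392. The brightest 8 were rps-10 (-0.24 ± 0.11), the ribosomal RNA gene rrn-3.1 (-0.16 ± 0.13), rps-18 (-0.16 ± 0.13), rps-16 (-0.15 ± 0.14), rpl-39 (-0.13 ± 0.10), rps-15 (-0.07 ± 0.11), rpl-35 (-0.03 ± 0.14) and rpl-30. For rpl-30 the interval of the difference was -0.24 to 0.24, with 14.46, 14.55 and 14.49 on hermaphrodite arrays and 14.36, 14.52 and 14.62 on male arrays.

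Energy metabolism showed no single direction. Respiratory chain genes were higher in 12 and lower in 12 of 39 cases (30.8% each, against 35.5% and 41.1% over all genes). Their median of -0.02 was above 0 under each rescaling. The cytochrome oxidase assembly genes cox-15 (1.92 ± 0.17) and cox-19 (1.65 ± 0.21) were the highest. Glycolysis genes were lower in 9 of 16 and higher in 2, with aldo-1 (-2.001 ± 0.23) lower and the hexokinase genes hxk-1 (2.53 ± 0.15) and hxk-2 (1.73 ± 0.21) higher. Genes of fatty acid synthesis were lower in 10 of 18, with the elongase genes elo-7 (-4.24 ± 0.35) and elo-4 (-1.94 ± 0.18) and the desaturase gene fat-3 (-1.34 ± 0.16), and higher in 2, among them elo-3 (1.12 ± 0.32). Genes of fatty acid oxidation were lower in 16 of 30, including acdh-8 (-5.04 ± 0.25), acs-2 (-4.87 ± 0.54), acdh-4 (-3.50 ± 0.27) and the carnitine transferase gene cpt-5 (-3.32 ± 0.36), and higher in 5, among them acox-1.5 (1.24 ± 0.25). The acs-2 arrays read 6.67, 6.37 and 6.23 in hermaphrodites and 10.90, 11.35 and 11.61 in males. Of the fatty acid carriers, far-7 (-2.67 ± 0.20) and far-8 (-2.13 ± 0.13) were lower and lbp-8, a lysosomal lipid chaperone gene, was higher (4.06 ± 0.78).

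Tested genes of detoxification families were mostly lower in hermaphrodites. UDP-glucuronosyltransferase genes were lower in 42 of 53 tested and higher in 2, glutathione S-transferase genes lower in 20 of 33 and higher in 2, and cytochrome P450 genes lower in 33 of 55 and higher in 5. Without the filter 44 of 64, 20 of 40 and 31 of 73 were lower, and 2, 2 and 5 were higher. Over all genes without the filter 5302 were lower and 4401 higher of 17118. The largest were ugt-43 (-4.65 ± 0.23), gst-11 (-4.24 ± 0.71) and cyp-34A2 (-2.98 ± 0.43), and on the other side cyp-31A5 (3.18 ± 0.24) and cyp-31A2 (2.97 ± 0.18), which is known for its part in the eggshell's lipid layer. Transthyretin-like genes were lower in 30 of 37, with ttr-56 at -5.75 ± 0.77, but ttr-50 (8.54 ± 0.66) and ttr-14 (4.14 ± 0.40) were far higher. Heat shock genes were higher in 5 (26.3%), lower in 7 (36.8%) and not called in 7 of 19, against 35.5% and 41.1% over all genes. Of the small ones, hsp-12.1 (-3.56 ± 0.70) and hsp-12.3 (-3.85 ± 0.24) were lower and hsp-16.41 (1.28 ± 0.32) was higher. Nuclear hormone receptor genes were lower in 88 and higher in 14 of 152 tested, and in 96 and 12 of all 254 without the filter. Among those tested nhr-125 (-4.01 ± 0.41) was the lowest and the maternal gene nhr-2 (3.02 ± 0.17) the highest.

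Genes of the X chromosome were seldom higher in hermaphrodites. Of 1648 tested X-linked genes 19.7% were higher and 45.3% lower in hermaphrodites, against 38.01% and 40.4% of 10529 autosomal genes. The median was -0.47 for X and -0.12 for the autosomes together. Chromosome V was lower still in its median (-0.66, with 27.3% higher and 50.3% lower), while chromosome I (0.35) and chromosome III (0.26) lay above 0, and chromosome II (-0.07) changed sign with the scaling. At 32-fold or more the picture for X turned: 37 X-linked genes (2.25%) were that much higher and 18 (1.09%) that much lower, against 1.32% and 5.11% of autosomal genes. Likewise the one-sided male pattern was shown by 1.58% of X-linked and 6.75% of autosomal genes, and the one-sided hermaphrodite pattern by 2.31% and 1.34%. Transcription from the X chromosome is known to be low in germ cells of both sexes and nearly absent in spermatogenesis. No test was made of these shares, which are descriptions over genes of the same arrays.

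**Figure D4:**
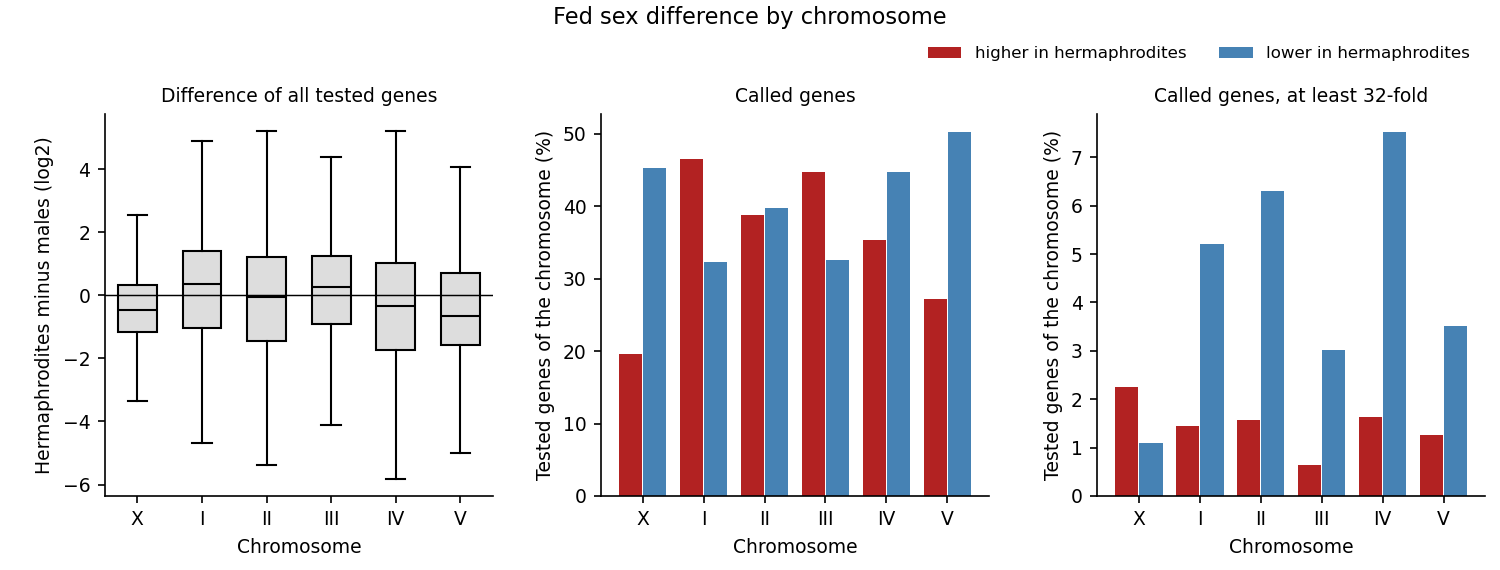
Fed hermaphrodites minus fed males by chromosome, as boxes of all tested genes (left, log2, median, quartiles and whiskers to 1.5 times the box), as the percent of tested genes called higher or lower (middle), and as the percent called and at least 32-fold (right). The X chromosome has the lowest share of higher genes, 19.7%, and the lowest share of 32-fold lower genes, 1.09%.

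Copies of the same protein on X and on an autosome are given as examples, which support nothing about the chromosome. In 10 proteins with an X-linked and an autosomal copy, picked after the values were seen, all 11 X-linked copies were lower in hermaphrodites, while 4 of 10 autosomal copies were higher, 1 was lower and 5 were not called. For subunit b of ATP synthase, X-linked asb-2 differed by -1.13 ± 0.13 and asb-1 on chromosome III by 0.77 ± 0.15. For subunit g, asg-2 differed by -0.91 ± 0.14 and asg-1 on chromosome I by 0.43 ± 0.11. For the flavoprotein subunit of succinate dehydrogenase, sdha-1 on X differed by -0.64 ± 0.15 and sdha-2 on chromosome I by 1.24 ± 0.19. The complex III core genes ucr-2.1 and ucr-2.2 on X differed by -0.63 ± 0.13 and -0.63 ± 0.18, and ucr-2.3 on chromosome III by 0.77 ± 0.15. Among ribosomal protein genes rpl-11.2 (-0.79 ± 0.11) and rpl-23A.1 (-0.73 ± 0.12) are X-linked, and their autosomal copies rpl-11.1 (0.14 ± 0.10) and rpl-23A.2 (0.22 ± 0.15) were not called. The poly(A)-binding protein genes pab-2 on X (-0.70 ± 0.13) and pab-1 on chromosome I (-0.28 ± 0.11) were both lower, though the call of pab-1 was lost without fed hermaphrodite replicate 1 or 3 or fed male replicate 1 or 2 (-0.28 to -0.17), and with no filter, median centring, hybridization controls, no variance trend or only the arrays compared (-0.28 to -0.13), and it read 0.21 after quantile normalization.

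Most calls of the fed sex difference recurred in fasted worms, which were measured on other arrays. In fasted worms 11245 probe sets (70.7%) differed between the sexes, 5206 higher (32.7%) and 6039 lower (38%) in hermaphrodites, 7903 of them (49.7% of those tested) by at least 2-fold, and 9979 were called in both states in the same direction, which is 83.8% of the fed and 88.7% of the fasted calls. In 50 cases the direction was opposite. Tested directly, the fed sex difference departed from the fasted one for 840 probe sets (5.28%), by a positive amount for 608 (3.82%) and by a negative amount for 232 (1.46%), and 500 (3.14%) departed by at least 2-fold. The sex difference was the larger one in fed worms for 581 of the 840 and in fasted worms for 259. The balance of directions depended on the scaling, with 231 positive and 358 negative once arrays were centred on their medians, 364 and 365 under quantile normalization and 186 and 107 when scaled to hybridization controls. The count of 840 fell to 437 or 439 without fed hermaphrodite replicate 1 or 2, 448 or 497 without fed male replicate 1 or 2, 428 or 455 without fasted hermaphrodite replicate 2 or 3, and 468 without fasted male replicate 2.

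Among uniquely matched genes with a locus name and a level above log2 7.73 in some group, those with the largest departures between fed and fasted worms encode varied proteins. The claudin-like gene clc-11 was lower in fed hermaphrodites (-3.21 ± 0.80) and higher in fasted ones (2.08 ± 0.80), and the departure was -5.29 ± 1.13 (adjusted p = 0.0215). The lipase gene lipl-1 went the other way, at 1.74 ± 0.45 in fed and -1.33 ± 0.45 in fasted worms. The lectin gene clec-183 differed by -8.90 ± 0.60 in fed and -4.41 ± 0.60 in fasted worms, clec-64 by -5.90 ± 0.63 and -1.83 ± 0.63, the dehydrogenase gene hsd-2 by -3.95 ± 0.30 and -0.20 ± 0.30, and atat-2 by -3.33 ± 0.31 and 0.09 ± 0.31. The protease gene cpr-4 was lower by little in fed worms (-1.01 ± 0.31) and by much in fasted ones (-4.49 ± 0.31). The lipase-like gene lips-11 differed by 2.62 ± 0.31 in fed and -0.37 ± 0.31 in fasted worms, cyp-13A5 by 2.81 ± 0.62 and -0.59 ± 0.62, and cpg-4 by 6.80 ± 0.46 and 3.50 ± 0.46, with 3.71 and 2.68 on a brighter probe set of the shared type. On the hermaphrodite side lbp-8 (4.06 ± 0.78 fed, -0.31 ± 0.78 fasted) and ins-35 (2.96 ± 0.37 fed, -0.11 ± 0.37 fasted) showed their sex difference in fed worms and none that was called in fasted worms. Sex markers differed in both states, with vit-2 at 6.71 ± 0.28 in fed and 6.61 ± 0.28 in fasted worms and mab-3 at -6.36 ± 0.73 and -6.04 ± 0.73.

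**Figure D5:**
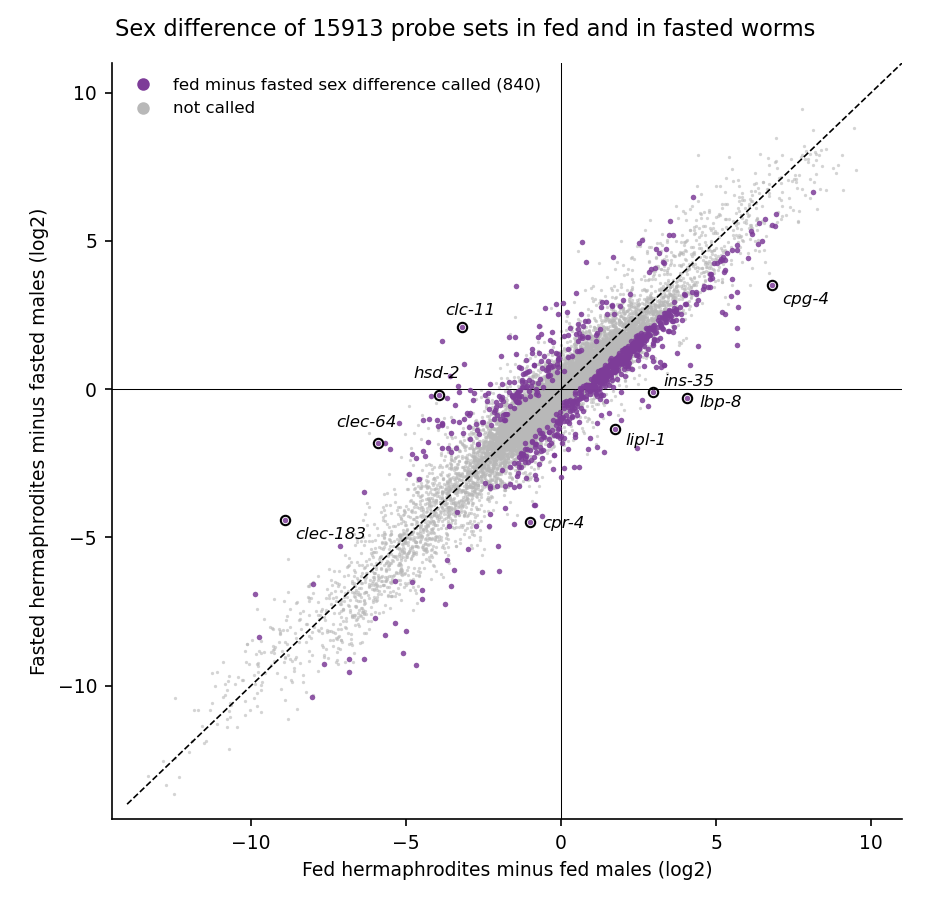
Hermaphrodites minus males in fed worms (x axis, log2) and in fasted worms (y axis, log2) for 15913 tested probe sets, with the 840 whose fed and fasted differences departed from each other in purple and the dashed line marking equal differences. Most points follow the line, and the circled genes clc-11, lipl-1, ins-35 and lbp-8 lie near or across 0 on the fasted axis.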

How the data were processed

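Whole worms were measured on 12 Affymetrix C. elegans Genome Arrays, 1 per sample, of which 6 held the fed sexes. The authors deposited log2 values computed with MAS5, according to the submitters' processing notes, and its version is not given in the sources used here. The 2% trimmed mean of the signal was 500.1 to 500.2 on every array, and 1171 values were exactly 0. Detection calls were not used here, and no further normalization was applied.

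Of 22625 probe sets 77 controls were left out, and 15913 lay above the 40th percentile (log2 6.01) on at least 3 of 12 arrays. Group means of 4 groups were fitted with limma 3.58.1 in R 4.3.3 (lmFit, eBayes with a trend, two-sided, Benjamini-Hochberg adjustment over all tested probe sets, called under 0.05, 12.2 total degrees of freedom), and the fit was tested on simulated data. Contrasts were hermaphrodites minus males when fed, the same when fasted, and the fed minus the fasted difference. The labels name separate biological samples, so p-values measure the spread between them. Python 3.11.15 with pandas 2.3.3 and numpy 2.4.6 prepared tables, and matplotlib 3.10.9 drew the figures.

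Gene names and chromosomes came from the array's annotation and the gene table of assembly WBcel235. A gene is represented by its brightest probe set with exactly 1 gene, 12212 in all. The arrays hold 116 other probe sets of named genes, of which 10 had the opposite sign. The groups, lists and members were chosen with earlier results of these data known, and lists are described by counts and medians, with no test. The genes named are the 15 largest differences per direction among uniquely matched locus-named genes above log2 7.73 without overlap between the sexes, up to 5 called members per list and direction, the 8 brightest genes of shared level, the 5 largest departures between fed and fasted worms per direction under the same limits except overlap, and 12 fixed genes. Of 308 genes printed 49 fall outside this rule and were chosen after their values were seen. The 20 name families such as scl, try and fbxb, the copies on X, and the one-sided patterns were also chosen after seeing the data. Alternatives were pseudocounts, filters, normalizations, array weights, a replicate block and leaving out each array. Promoter sequences were not analysed here.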

Additional observations from a re-analysis of the deposited data

Results flagged for a closer look

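For 41 of the 308 genes printed above, the sex difference departed between fed and fasted worms in the direct test (limma, adjusted p under 0.05). These genes were chosen with results known, some of them because they passed this same test. The count therefore cannot be compared with the share over all probe sets, which was 5.28%. Departures are the fed minus the fasted sex difference, in log2 units.

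Positive departures included those of meg-2 (2.75), cpg-4 (3.30), psf-2 (1.59), mesp-1 (1.28), dmd-9 (0.99), inx-14 (0.96), rnr-1 (0.94), inx-21 (0.88), puf-8 (0.88), cpg-1 (0.82), cyb-2.2 (0.81), cyb-2.1 (0.79), puf-3 (0.78), egg-1 (0.78) and cpg-2 (0.75). The egg-1 difference, for instance, was 6.37 in fed and 5.59 in fasted worms.

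Other positive departures were those of lbp-8 (4.37), cpr-4 (3.48), cyp-13A5 (3.39), lipl-1 (3.07), ins-35 (3.07), lips-11 (2.99), lys-4 (2.34), cpr-1 (1.56), spe-44 (1.03), nhr-23 (1.01), mrpl-51 (1.01), clec-88 (0.97), clec-87 (0.84), stam-1 (0.62) and rpn-5 (0.58). Negative departures were those of clc-11 (-5.29), clec-183 (-4.49), clec-64 (-4.07), hsd-2 (-3.75), atat-2 (-3.43), nhr-125 (-2.99), hsp-12.3 (-2.72), nhr-25 (-1.61), sqt-3 (-1.61), sex-1 (-1.34) and nhr-2 (-1.07). Of these nhr-25, sex-1 and nhr-2 were higher in hermaphrodites in both states and by more when fasted.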

How the results depend on the processing

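The counts of the fed sex difference stayed within 1.5 times of the reported ones under 12 alternative settings and with each of 12 arrays left out. Leaving out 1 array gave 11274 to 12000 called probe sets. The alternative settings gave 8761 with the 2-fold minimum, 9376 with the filter at the 60th percentile, and up to 12387 with no filter. Of 285 printed genes called, 273 kept their call in every setting that tested them. Quantile normalization took away the calls of dmd-3 (-0.51), cpr-4 (-0.57), unc-11 (0.38), spe-48 (0.26) and nlp-36 (0.066). Hybridization controls took away those of mrps-12 (-0.39), ucr-2.2 (-0.48), pfk-1.1 (-0.65), sago-1 (-0.36) and spe-44 (-0.25). Median centring took away that of spe-44 (-0.32), and no variance trend that of unc-60 (0.30). The call of nlp-36 was also lost with either pseudocount, no filter or no variance trend (0.30 to 0.32). Losses of the pab-1 call are given above. The sign of cyc-2.1 (0.29), pab-1 (0.21), rpl-30 (0.37), rpl-35 (0.34), rps-15 (0.32), rrn-3.1 (0.24) and ule-3 (0.22) turned with quantile normalization. It also turned the medians of cytosolic ribosome (0.11), male tail (0.19), respiratory chain (0.27) and chromosome II (0.0713) genes. Median centring turned respiratory chain (0.0630) and chromosome II (0.0118), and hybridization controls turned both (0.13 and 0.0818). Using all probe sets turned chromosome II (0.0185) and hypodermis (-0.0643) genes, no filter (-0.32) and the higher pseudocount (-0.0529) hypodermis genes, and leaving out probe sets shared by similar sequences histone (-0.30) and sperm fate (-0.15) genes. Medians near 0 also turned with 1 array left out: the range was -0.0631 to 0.0757 for sperm fate genes, -0.39 to 0.49 for hypodermis genes and -0.0423 to 0.0359 for respiratory chain genes. The cause of these turns was not tested.

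The departure between fed and fasted worms was the least steady count. Against 840 called, 608 positive and 232 negative, array weights gave 1522, 1075 and 447, hybridization controls 293, 186 and 107, median centring 231 positive and 358 negative, quantile normalization 364 and 365, no variance trend 379 positive, the pseudocount of 64.6 439 negative, and the 2-fold minimum 500, 310 of them positive. Leaving out 1 array gave 428 to 899, 282 to 610 and 127 to 289. Positive fasted sex differences were 3395 with the 2-fold minimum. Of shared levels, 35 probe sets lay inside 0.3, 3486 inside 1, 1486 inside 0.5 with the pseudocount of 64.6, and 392 to 619 with 1 array left out.

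Deviations of same-numbered fed hermaphrodite and fed male arrays from their group means correlated at 0.0817, 0.0802 and 0.204 for replicates 1, 2 and 3. Replicates 1 and 2 fell short of the 0.1 asked of every pair, so the numbers were not taken as pairs in the main fit. Yet 6 of 6 fed arrays correlated best with the same number in the other sex. On the second principal component (3.34% of the variance) replicate 3 lay at -47.5 in hermaphrodites and -30.9 in males, and the other arrays at 11.9 to 26.2. A replicate block gave 12380 called fed sex differences and 1641 departures, 1179 positive and 462 negative. The number of arrays and weak signal, rather than read depth, limit these values.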

Other observations

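Further gene families of the fed comparison are given as values. Genes of unnamed loci leaned to the male side: of 5346 tested probe sets with 1 gene and no locus name 1580 were higher and 2530 lower in hermaphrodites (median -0.51), against 3874 and 3272 of 9674 with a locus name (median 0.08). Probe sets that match several genes had 173 higher and 292 lower of 592. Tyrosine phosphatase genes named ptp were higher in 1 and lower in 6 of 8. Neurotransmitter transporter family genes named snf were lower in all 11 tested and in 11 of all 12 on the array. The bath genes, of a ubiquitin ligase class other than SCF, were higher in 18 and lower in 1 of 25 tested, and in 18 and 2 of all 38 on the array. The math genes were higher in 1 and lower in 14 of 20 tested, and in 3 and 17 of all 47. Median levels of tested math genes were 5.45 on hermaphrodite arrays and 6.85 on male arrays, so many passed the filter through males. Over all genes without the filter 4401 were higher and 5302 lower of 17118. Linker histone genes named hil were higher in 6 and lower in 0 of 8, and skr genes higher in 13 and lower in 2 of 18. The fbxc genes were higher in 15 and lower in 2 of 26 tested, and in 20 and 1 of all 44 on the array. Kinase genes named ttbk were lower in 4 of 5 tested and in 4 of all 6 on the array, led by ttbk-4 (-6.32 ± 0.76).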
